A study of Mus musculus with 4 samples.

Results

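The genes described here are 33 genes of sterol and fatty acid synthesis that are known targets or regulators of the SREBP transcription factors. They were taken by name from 24135 gene symbols and accessions with a value in the deposited tables, and fall into 18 genes of sterol synthesis and transport, 10 of fatty acid synthesis and 5 regulators. RNA was sequenced from 4 cultures of adherent C57BL/6 mouse bone marrow cells kept 6 days with the myeloid growth factor GM-CSF (10 ng/ml) that the labels call macrophages. The 4 groups were Batf2-/- cells (KO, lacking a basic leucine zipper transcription factor) at 3 h of LPS, wild-type Batf2+/+ cells (WT) at 3 h of LPS, KO cells at 0 h and WT cells at 0 h. LPS is a bacterial cell wall component and was given at 100 ng/ml, and per the labels it followed 4 h of interferon-gamma (10 ng/ml) in all 4 cultures. Each group holds 1 library, so no test was run and no difference could be set against the spread between cultures.

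SREBP-1 and SREBP-2 are membrane proteins of the endoplasmic reticulum. When sterols are scarce, SCAP carries them to the Golgi, where proteases release the part that enters the nucleus and raises the transcription of sterol and fatty acid synthesis genes. INSIG proteins hold SCAP back when sterols are plentiful. In macrophages this pathway is known to be turned down by several inflammatory signals, and side chain-oxidised sterols are among its inhibitors.

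Values are FPKM, a read density per length of transcript and per mapped read of the library, summed over the transcript entries of a gene. The libraries held an estimated 20300000 to 30700000 mapped reads and 9557 to 10758 genes with an FPKM of at least 1. Batf2 itself had 10.1 FPKM in KO and 234 FPKM in WT at 3 h, and 0.259 FPKM in KO and 2.63 FPKM in WT at 0 h. All 8 macrophage markers examined, among them Csf1r and Cd68, had an FPKM of at least 1 in every library. Of 6 dendritic cell markers, Itgax had 457 to 564 FPKM and Flt3 was near 0 in every library, while Zbtb46, Clec9a, Ccr7 and Cd209a were detected at levels that differed between libraries. The summed FPKM of 8 neutrophil and precursor markers was 4995 in KO and 5251 in WT at 3 h, and 8624 in KO and 3483 in WT at 0 h, so that the KO culture at 0 h stood apart. The 5 interferon-gamma targets Irf1, Gbp2, Gbp3, Cxcl9 and Ciita, chosen after values were seen, summed to 4067 FPKM in KO and 4737 FPKM in WT at 3 h, and to 68.8 FPKM in KO and 103 FPKM in WT at 0 h. They were low at the time that, per the labels, follows the interferon treatment, and the parts of interferon-gamma and LPS in a difference between 3 h and 0 h cannot be told apart.

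Promoter sequences are shown first, since the SREBPs and their partner factors are known to act through short words in promoters. Of the 33 members, 26 had a promoter window in RefSeq (GRCm38), running from 250 bases before to 50 bases after the gene's start, and for 22 of these the start was that of the gene's most abundant deposited transcript. The window of Pmvk lay 453 bases from that transcript's start and was set on the start of its other entry. Both strands were searched for CACNCCAC, a word like the sterol regulatory element, for the CCAAT box, for the GC box GGGCGG and for the E-box CACGTG. No match of 1 word overlapped a match of another. The 3 windows that hold CACNCCAC, those of Hmgcs1, Insig1 and Acat2, are printed with that of Fasn, which has CCAAT boxes alone, a pair of them overlapping on opposite strands. Capitals mark CACNCCAC and CCAAT on either strand, so that CCAAT on the other strand reads ATTGG.
Hmgcs1, chr13:119690101-119690400, plus strand: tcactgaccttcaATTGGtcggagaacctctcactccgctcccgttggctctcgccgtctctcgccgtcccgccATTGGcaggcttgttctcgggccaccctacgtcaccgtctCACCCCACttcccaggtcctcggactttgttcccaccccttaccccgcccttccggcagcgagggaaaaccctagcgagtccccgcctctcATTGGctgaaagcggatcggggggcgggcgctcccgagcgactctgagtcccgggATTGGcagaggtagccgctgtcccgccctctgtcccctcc
Insig1, chr5:28071162-28071461, plus strand: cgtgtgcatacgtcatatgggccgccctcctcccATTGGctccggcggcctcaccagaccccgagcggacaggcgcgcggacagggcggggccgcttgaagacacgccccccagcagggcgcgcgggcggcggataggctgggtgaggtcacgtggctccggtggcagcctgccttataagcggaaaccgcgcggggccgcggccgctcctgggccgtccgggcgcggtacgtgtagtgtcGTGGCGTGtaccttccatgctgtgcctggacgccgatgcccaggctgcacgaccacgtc
Acat2, chr17:12960676-12960975, minus strand: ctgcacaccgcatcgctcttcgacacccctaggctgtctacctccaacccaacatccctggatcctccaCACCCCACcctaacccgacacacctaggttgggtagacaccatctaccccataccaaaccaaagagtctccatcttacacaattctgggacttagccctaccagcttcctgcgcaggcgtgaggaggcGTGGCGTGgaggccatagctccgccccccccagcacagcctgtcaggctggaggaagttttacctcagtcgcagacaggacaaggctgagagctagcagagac
Fasn, chr11:120824498-120824797, minus strand: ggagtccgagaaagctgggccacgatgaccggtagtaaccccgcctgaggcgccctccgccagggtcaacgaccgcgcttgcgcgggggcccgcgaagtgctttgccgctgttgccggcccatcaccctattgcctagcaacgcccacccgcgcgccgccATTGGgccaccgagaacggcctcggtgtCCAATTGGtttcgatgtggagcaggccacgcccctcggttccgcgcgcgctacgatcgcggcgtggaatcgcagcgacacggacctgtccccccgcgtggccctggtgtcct

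In Hmgcs1 the CACNCCAC word began 136 bases before the start, in Insig1 9 bases before it, and in Acat2 181 and 53 bases before it. The word was in 11.5% of the members' windows and in 6.24% of all 32851 windows. The CCAAT box, the site of the SREBP partner NF-Y, was in 18 of the 26 members' windows, or 69.2%, against 37.4% of all windows and 37.8% of the 11297 windows of genes with an FPKM of at least 1. Hmgcs1 had 4 copies and Mvk 5. The GC box, a site of Sp1, was in 76.9% of the members' windows, and in 62.3% of those of expressed genes. The E-box was in 5 members' windows (Hsd17b7, Sc5d, Scap, Insig1 and Elovl5), or 19.2%, and in 10.1% of those of expressed genes. A match is a description of the letters and not a site, and the windows of all genes include several starts of some genes.

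The members covered a wide range of levels. At 0 h the highest was the stearoyl-CoA desaturase Scd2 with 115 FPKM in KO and 182 FPKM in WT, followed by the citrate lyase Acly with 81.3 FPKM in KO and 94.1 FPKM in WT. Elovl6, an elongase of long saturated fatty acids, was the lowest of the detected members with 2.18 FPKM in KO and 3.59 FPKM in WT. Fdft1, the squalene synthase, was listed at 0 in all 4 libraries, which may be absence or an estimate that failed. It enters no comparison below. In every other member the deposited intervals were those of a single library, covering counting and read assignment error and not the spread between cultures. They are 95% intervals, centred here on the FPKM at their deposited relative width.

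**Figure D1:**
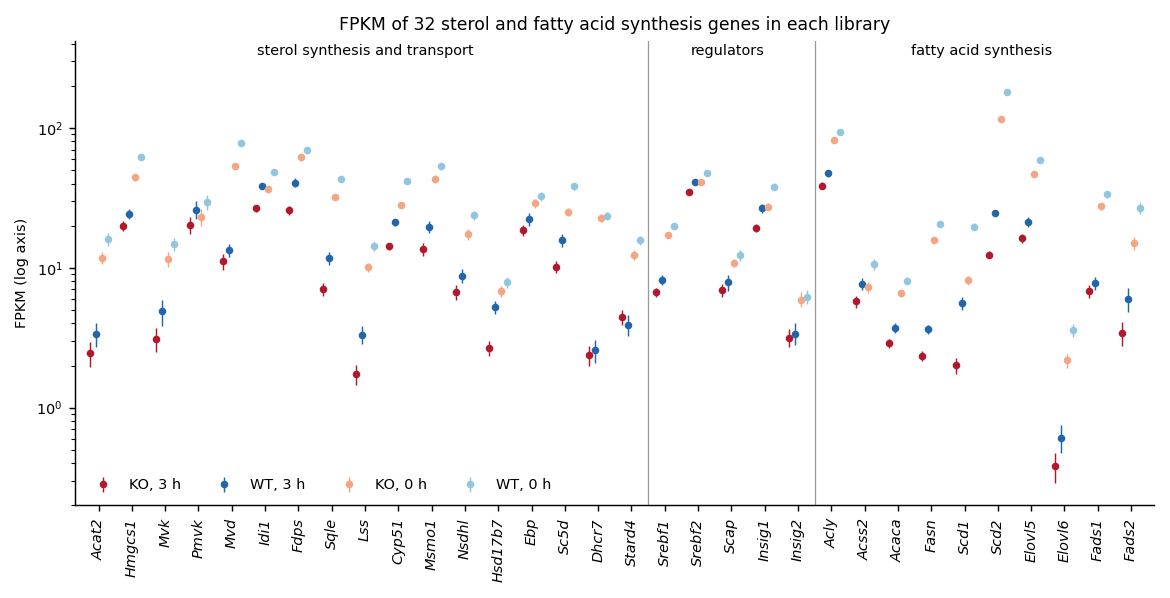
FPKM (log axis) of the 32 members above 0 in the KO and WT libraries at 3 h and at 0 h of LPS. Points are single libraries and bars the deposited 95% intervals, centred on the FPKM at their deposited relative width. For Scd2 the points run down to 12.4 FPKM in KO at 3 h, against 182 FPKM in WT at 0 h.

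The first comparison was between KO and WT cells at each time, and it asks whether loss of Batf2 goes with another level of these genes. Lipid synthesis genes were lower in KO at 3 h in 30 of the 31 members measured (Stard4 was the exception) and at 0 h in 32 of 32, by less than 2-fold in all but Scd1. A gene counts as measured with an FPKM of 1 or more in either library. Differences are on the log2(FPKM + 1) scale, KO minus WT, and understate the change of low genes. The members' median difference was -0.36 at 3 h, where the median of all 9808 genes was -0.07, and -0.36 at 0 h, where that of all 10846 genes was 0.00. With the libraries rescaled to equal median ratios, Insig2 also turned higher in KO at 3 h, leaving 29 of 31 lower. At 0 h 32 of 32 stayed lower with that rescaling. With the highest transcript entry of each gene alone, 30 of 31 were lower at 3 h and 31 of 32 at 0 h, where Scap was higher. For direction alone, 65.6% of all genes were lower in KO at 3 h and 50.1% at 0 h. In bulk RNA, fewer cells of a type and less RNA per cell cannot be told apart.

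Members whose deposited intervals did not overlap numbered 22 at 3 h and 26 at 0 h, and all were lower in KO. Of all genes, 16.8% at 3 h and 9.26% at 0 h were lower with separate intervals, and 8.69% at 3 h and 9.87% at 0 h were higher. Of 31 members measured in all 4 libraries, 21 were lower with separate intervals at both times (4.54% of 9508 genes). The difference KO minus WT was lower at 3 h than at 0 h in 19 of them. It was also lower at 3 h in 63.4% of the 11128 genes with an FPKM of 1 or more in any library. The KO libraries at 3 h and 0 h are different cultures, as are the WT ones. A 2-fold difference with separate intervals was met by Scd1 alone at each time (0.724% of all genes at 3 h and 0.387% at 0 h), and no member was 2-fold higher (0.734% of all genes at 3 h and 1.33% at 0 h). A 1.5-fold difference was met by 8 members at 3 h (2.81% of all genes), namely Fdps, Sqle, Lss, Hsd17b7, Sc5d, Scd1, Scd2 and Fads2. At 0 h it was met by Scd1, Scd2 and Fads2 (1.59% of all genes).

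**Figure D2:**
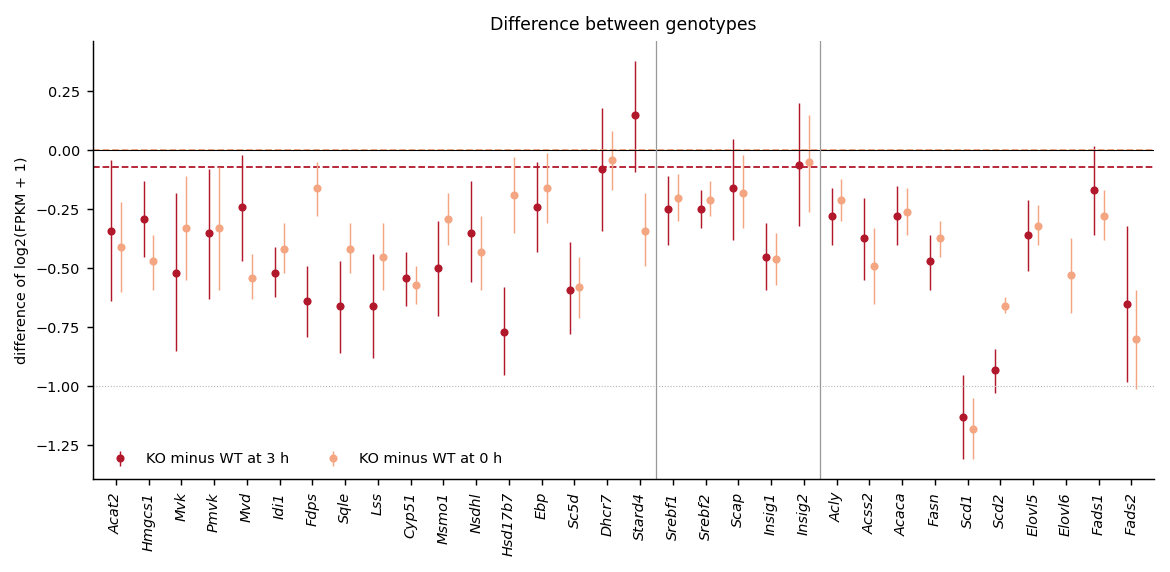
Difference KO minus WT of log2(FPKM + 1) for each member at 3 h (dark red) and 0 h (orange), with 95% intervals from the deposited ones. Dashed lines are the medians of all genes (-0.07 at 3 h, 0.00 at 0 h) and the dotted line a 2-fold difference, which Scd1 passes at both times; Elovl6 at 3 h was below an FPKM of 1.

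Among the early enzymes of the sterol pathway, Hmgcs1, the cytosolic HMG-CoA synthase, had 19.8 FPKM in KO and 24.4 FPKM in WT at 3 h, and 44.4 FPKM in KO and 62.0 FPKM in WT at 0 h. It was lower in KO by 1.23-fold at 3 h and by 1.40-fold at 0 h, with separate intervals both times. Its 2 transcript entries went opposite ways at 3 h: NM_001291439 had 14.6 FPKM in KO and 21.2 FPKM in WT, and NM_145942 had 5.29 FPKM in KO and 3.21 FPKM in WT. With the higher entry alone, the Hmgcs1 difference at 3 h was -0.52, against -0.29 for the sum. The division of reads between entries of 1 gene was made by the authors' estimate, and the sum was used for this reason. Acat2, the acetoacetyl-CoA thiolase before it, had 2.45 FPKM in KO and 3.37 FPKM in WT at 3 h, with overlapping intervals, and 11.8 FPKM in KO and 16.0 FPKM in WT at 0 h. Of the kinases that act on mevalonate, Mvk had 3.10 FPKM in KO and 4.87 FPKM in WT at 3 h, and 11.5 FPKM in KO and 14.7 FPKM in WT at 0 h. The intervals of Mvk were separate at both times, while those of Pmvk, the kinase of the next step, overlapped at both. Pmvk had 20.2 FPKM in KO and 26.1 FPKM in WT at 3 h, and 23.2 FPKM in KO and 29.6 FPKM in WT at 0 h. Its 2 entries went opposite ways at 0 h. The more abundant one had 13.2 FPKM in KO and 21.6 FPKM in WT, and the other 10.1 FPKM in KO and 7.95 FPKM in WT.

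The enzymes that make and join isoprene units also lay lower in KO. Mvd, the mevalonate diphosphate decarboxylase, had 11.1 FPKM in KO and 13.3 FPKM in WT at 3 h, with overlapping intervals, and 53.2 FPKM in KO and 77.8 FPKM in WT at 0 h, a 1.46-fold lower level. Its KO value at 3 h includes 1.71 FPKM of a non-coding entry that was listed at 0 in the other libraries, and without that entry the difference at 3 h was -0.46 (interval -0.66 to -0.27), against -0.24 with it. Idi1, the isomerase of the isoprene unit, had 26.6 FPKM in KO and 38.4 FPKM in WT at 3 h, and 36.3 FPKM in KO and 48.7 FPKM in WT at 0 h. Fdps, the farnesyl diphosphate synthase, had 25.7 FPKM in KO and 40.6 FPKM in WT at 3 h, and 61.7 FPKM in KO and 69.2 FPKM in WT at 0 h. The Fdps difference was 1.58-fold at 3 h and 1.12-fold at 0 h.

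Sqle, the squalene epoxidase and a rate-limiting step, had 7.01 FPKM in KO and 11.7 FPKM in WT at 3 h, and 32.1 FPKM in KO and 43.2 FPKM in WT at 0 h. It was lower in KO by 1.67-fold at 3 h and by 1.35-fold at 0 h. Lss, which closes the sterol ring, had 1.74 FPKM in KO and 3.33 FPKM in WT at 3 h, and 10.1 FPKM in KO and 14.2 FPKM in WT at 0 h. The Lss difference was 1.92-fold at 3 h and 1.40-fold at 0 h.

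Of the enzymes that act on the closed ring, Cyp51, the lanosterol demethylase, had 14.2 FPKM in KO and 21.2 FPKM in WT at 3 h, and 28.0 FPKM in KO and 42.0 FPKM in WT at 0 h. Sc5d, the sterol C5 desaturase, had 10.1 FPKM in KO and 15.8 FPKM in WT at 3 h, and 25.2 FPKM in KO and 38.2 FPKM in WT at 0 h. For both genes the difference was nearly the same at the 2 times, at -0.54 for Cyp51 and -0.59 for Sc5d at 3 h, and at -0.57 and -0.58 at 0 h. Hsd17b7, the 3-ketosteroid reductase, was lower in KO by 1.96-fold at 3 h, with 2.67 FPKM in KO and 5.25 FPKM in WT. At 0 h Hsd17b7 had 6.79 FPKM in KO and 7.90 FPKM in WT, with overlapping intervals. Msmo1 and Nsdhl, which remove methyl groups from the ring, were lower in KO by 1.44-fold and 1.31-fold at 3 h, and by 1.23-fold and 1.37-fold at 0 h, with separate intervals. Ebp, a sterol isomerase, was lower by 1.19-fold at 3 h and by 1.12-fold at 0 h, with overlapping intervals.

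Dhcr7 and Stard4 of the sterol arm did not share this difference at 3 h. Dhcr7 encodes the reductase that ends one branch of cholesterol synthesis, and had 2.38 FPKM in KO and 2.57 FPKM in WT at 3 h, and 22.7 FPKM in KO and 23.5 FPKM in WT at 0 h, and its intervals overlapped at both times. Stard4, a carrier of cholesterol between membranes, had 4.45 FPKM in KO and 3.92 FPKM in WT at 3 h, with overlapping intervals, and 12.3 FPKM in KO and 15.8 FPKM in WT at 0 h, with separate ones. Over the whole arm of 18 genes, FPKM summed to 191 in KO and 265 in WT at 3 h, or 71.8%, and to 469 in KO and 612 in WT at 0 h, or 76.6%. The arm's median difference was -0.50 at 3 h and -0.41 at 0 h over 17 measured genes.

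The regulators differed less than the enzymes in the median. Srebf2, which encodes SREBP-2, had 34.6 FPKM in KO and 41.2 FPKM in WT at 3 h, and 40.8 FPKM in KO and 47.3 FPKM in WT at 0 h. Srebf1, which encodes SREBP-1, had 6.71 FPKM in KO and 8.18 FPKM in WT at 3 h, and 17.2 FPKM in KO and 19.9 FPKM in WT at 0 h. Both were lower in KO by 1.16-fold to 1.22-fold, with separate intervals at both times. Insig1, itself an SREBP target, was lower by 1.39-fold at both times, with 19.3 FPKM in KO and 26.8 FPKM in WT at 3 h, and 27.4 FPKM in KO and 38.1 FPKM in WT at 0 h. Insig2, its paralogue, had 3.16 FPKM in KO and 3.35 FPKM in WT at 3 h, and 5.92 FPKM in KO and 6.18 FPKM in WT at 0 h. Its intervals overlapped at both times, as did those of Scap, the carrier of the SREBPs, which was lower by 1.14-fold at both. At 0 h the more abundant Scap entry was slightly higher in KO, with 10.8 FPKM in KO and 10.1 FPKM in WT. The other Scap entry had 0 in KO and 2.26 FPKM in WT at 0 h. The median difference of the 5 regulators was -0.25 at 3 h and -0.20 at 0 h.

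In the fatty acid arm, the desaturase Scd1 had the largest difference of all measured members at both times. Scd1, which puts the first double bond into saturated fatty acids, had 2.01 FPKM in KO and 5.58 FPKM in WT at 3 h, and 8.14 FPKM in KO and 19.7 FPKM in WT at 0 h. It was lower in KO by 2.78-fold at 3 h (interval 2.34 to 3.29) and by 2.42-fold at 0 h (2.20 to 2.66), and it ranked 70th from the lowest of 9808 genes at 3 h and 49th of 10846 at 0 h. Scd2, its paralogue, had 12.4 FPKM in KO and 24.6 FPKM in WT at 3 h, and 115 FPKM in KO and 182 FPKM in WT at 0 h. The Scd2 difference was 1.98-fold at 3 h (1.85 to 2.13) and 1.58-fold at 0 h (1.54 to 1.62). Scd1 (chr19:44394450-44407709) and Scd2 (chr19:44293676-44306862, GRCm38) are near neighbours of similar coding sequence, and how the authors' estimate shared reads between them is not given in the sources used here. Fads2, the delta-6 desaturase of polyunsaturated fatty acids, had 3.44 FPKM in KO and 5.97 FPKM in WT at 3 h, and 15.0 FPKM in KO and 26.9 FPKM in WT at 0 h, and was lower by 1.74-fold and 1.79-fold. Its neighbour on chromosome 19, the delta-5 desaturase Fads1, was lower by 1.14-fold at 3 h, with overlapping intervals, and by 1.22-fold at 0 h.

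The enzymes that build and lengthen the chain were also lower in KO. Fasn, the fatty acid synthase, had 2.34 FPKM in KO and 3.64 FPKM in WT at 3 h, and 15.7 FPKM in KO and 20.7 FPKM in WT at 0 h, lower by 1.56-fold and 1.31-fold. Acaca, which makes malonyl-CoA, was lower by 1.28-fold at 3 h and 1.23-fold at 0 h. Acly and Acss2, which supply acetyl-CoA from citrate and from acetate, were lower by 1.22-fold and 1.34-fold at 3 h, and by 1.16-fold and 1.46-fold at 0 h. The elongase Elovl5 was lower by 1.30-fold at 3 h and by 1.25-fold at 0 h. Elovl6 had 0.382 FPKM in KO and 0.609 FPKM in WT at 3 h, below the minimum, and was lower by 1.64-fold at 0 h. Intervals were separate at both times for Fasn, Acaca, Acly, Acss2 and Elovl5, and at 0 h for Elovl6. The arm of 10 genes summed to 90.9 FPKM in KO and 128 FPKM in WT at 3 h, or 71.0%, and to 326 FPKM in KO and 458 FPKM in WT at 0 h, or 71.2%. Its median difference was -0.37 over 9 measured genes at 3 h and -0.43 over 10 at 0 h.

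**Figure D3:**
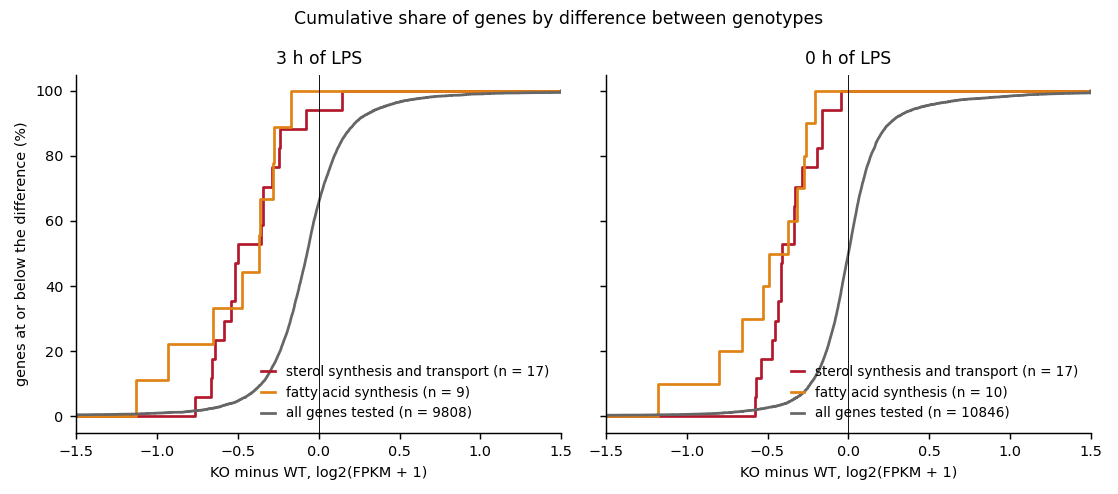
Cumulative share of genes (%) by the difference KO minus WT of log2(FPKM + 1) at 3 h (left) and 0 h (right), for the sterol arm, the fatty acid arm and all genes tested. Both arms lie left of all genes, with medians of -0.50 and -0.37 at 3 h, where all genes have -0.07.

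Several cell type markers moved with genotype beside these differences. The neutrophil and precursor markers summed to 248% of WT in KO at 0 h and to 95.1% at 3 h, while the members summed to 75.1% of WT at 0 h and to 73.2% at 3 h. The 6 stromal markers summed to 52.9 FPKM in KO and 33.7 FPKM in WT at 3 h, and to 74.5 FPKM in KO and 33.2 FPKM in WT at 0 h. The 6 cycling cell markers summed to 91.7 FPKM in KO and 83.1 FPKM in WT at 3 h, and to 140 FPKM in KO and 158 FPKM in WT at 0 h. At 3 h Mki67 (52.2 FPKM in KO, 38.1 FPKM in WT) made the KO sum the higher one. By gene, 4 of the 6 were lower in KO at 3 h (65.6% of all genes), with a median difference of -0.15. At 0 h all 6 were lower (50.1% of all genes), 3 with separate intervals (9.26%), with a median of -0.14. The 8 macrophage markers, of which Lyz2 holds most of the sum, reached 15700 FPKM in KO and 17124 FPKM in WT at 3 h, and 24687 FPKM in KO and 22922 FPKM in WT at 0 h. By gene, 6 of the 8 were higher in KO at each time, while 65.6% of all genes at 3 h and 50.1% at 0 h were lower. The median differences of the 8 were 0.14 at 3 h and 0.12 at 0 h. The 4 mast cell and basophil markers summed to 21.0 FPKM in KO and 14.8 FPKM in WT at 3 h, and to 10.0 FPKM in KO and 4.65 FPKM in WT at 0 h. Hdc held most of the sum at 3 h, with 16.9 FPKM in KO and 10.8 FPKM in WT. At 3 h Mcpt8 and Kit had overlapping intervals, and Cpa3 had 0.421 FPKM in KO and 0.933 FPKM in WT. The 6 dendritic cell markers summed to 538 FPKM in KO and 489 FPKM in WT at 3 h, and to 567 FPKM in KO and 583 FPKM in WT at 0 h, nearly all of it Itgax. Of the others, Clec9a was lower in KO by 4.47-fold at 3 h and 2.33-fold at 0 h, Cd209a by 3.04-fold and Zbtb46 by 1.63-fold at 0 h, and Ccr7 was higher by 1.93-fold at 3 h. The median of the 5 measured at 0 h was -0.60. That of the 4 measured at 3 h was -0.05, with 2 lower and 2 higher in KO, and Zbtb46 had overlapping intervals at 3 h. The 5 adipocyte markers summed to at most 0.104 FPKM in any library, with Adipoq and Lep at 0 in all 4. The 6 T and B cell markers summed to at most 0.664 FPKM. The part of any of these cells in the members' differences was not tested.

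The second comparison was between 3 h and 0 h of LPS in each genotype, and it asks how these genes stood after the stimulus. All 32 members measured were lower at 3 h than at 0 h in KO and in WT as deposited, 31 with separate intervals (70.0% of all genes in KO and 64.5% in WT) and Pmvk with overlapping ones. Most genes were lower at 3 h on this scale: the median of all genes was -0.64 in KO and -0.54 in WT, and 79.9% of genes in KO and 78.0% in WT were lower. The members' median was -1.24 in KO and -1.32 in WT, and 25 of the 32 lay below the median of all genes in each genotype. On the log2(FPKM + 1) scale a 2-fold lower value with separate intervals was met by 22 members in KO (28.0% of all genes). In WT 19 members met it (23.2%). A 1.5-fold lower value was met by 26 in KO (52.2%) and 25 in WT (46.2%). By the ratio of FPKM without the added 1, Acaca also passed 2-fold, at 2.29-fold in KO and 2.19-fold in WT. No member was 2-fold higher, where 7.85% of all genes were in KO and 7.56% in WT. With libraries rescaled to equal median ratios, 11 members met it in KO (10.2% of all genes) and 12 in WT (9.83%), and Pmvk, Idi1, Srebf2, Insig1 and Acss2 in both genotypes, and Ebp in KO, turned to higher values at 3 h. The same rescaling moved the share of higher genes among all 2-fold calls to 56.1% in KO and 54.7% in WT, against 21.9% in KO and 24.6% in WT as deposited.

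**Figure D4:**
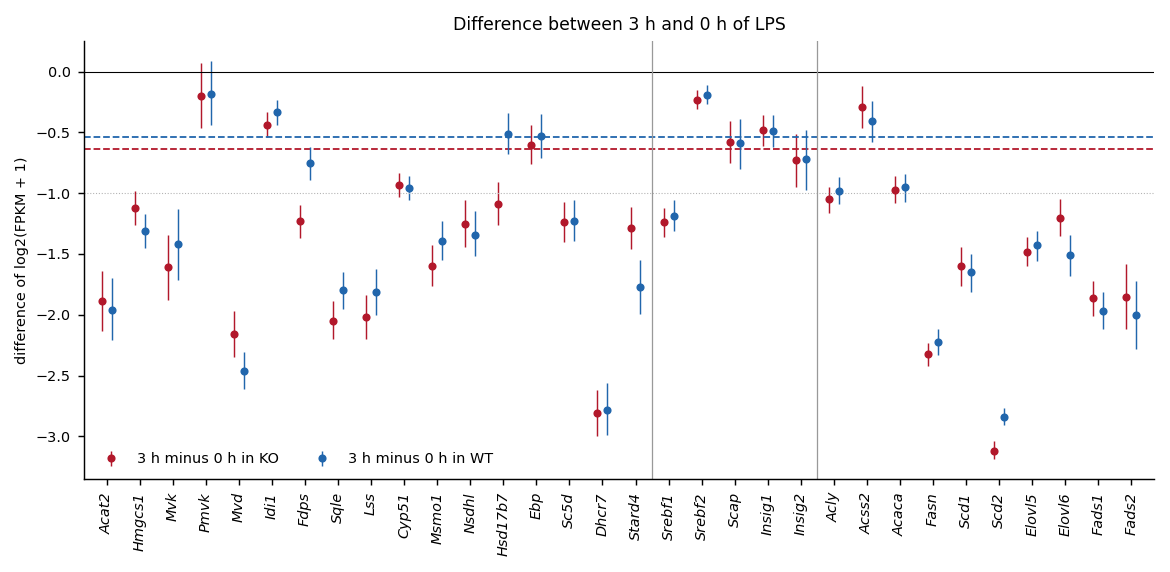
Difference of log2(FPKM + 1) at 3 h minus 0 h for each member in KO (dark red) and WT (blue), as deposited, with 95% intervals. Dashed lines are the medians of all genes (-0.64 in KO, -0.54 in WT); Scd2 and Dhcr7 lie lowest, and Pmvk, Idi1, Srebf2, Insig1 and Acss2, which turn positive with median rescaling, lie above both lines.

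The steepest drops were in Scd2 and Dhcr7. Scd2 was 9.29-fold lower at 3 h in KO (8.77 to 9.84) and 7.41-fold lower in WT (7.05 to 7.78), on the FPKM values already given. Dhcr7 was 9.55-fold lower in KO (7.97 to 11.4) and 9.13-fold lower in WT (7.49 to 11.1). Fasn was lower by 6.72-fold in KO and 5.68-fold in WT. Further large drops were those of Lss with 5.81-fold in KO and 4.26-fold in WT, Mvd with 4.79-fold in KO and 5.84-fold in WT, and Acat2 with 4.80-fold in KO and 4.74-fold in WT. Elovl6 was 5.71-fold lower in KO and 5.89-fold lower in WT, at FPKM values under 1 at 3 h. Fads1 and Fads2 lay close together here, at 4.03-fold and 4.36-fold in KO, and at 4.29-fold and 4.50-fold in WT, although their differences between genotypes were unequal in size.

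The regulators of the pathway stood apart from its enzymes in size. Their median difference was -0.58 in KO and -0.59 in WT, close to that of all genes, while that of the sterol arm was -1.25 in KO and -1.34 in WT, and that of the fatty acid arm -1.54 in KO and -1.58 in WT. Srebf2 was 1.18-fold lower at 3 h in KO and 1.15-fold lower in WT, and Srebf1 was 2.56-fold lower in KO and 2.43-fold lower in WT. Insig1 was 1.42-fold lower in both genotypes, and Insig2 1.87-fold lower in KO and 1.85-fold lower in WT. With the median rescaling Srebf2 and Insig1 were higher at 3 h in both genotypes, while Srebf1 stayed lower. Within the sterol arm Pmvk (1.15-fold in KO, 1.13-fold in WT) and Idi1 (1.37-fold in KO, 1.27-fold in WT) were lower by less than any other measured gene, and both turned higher with the rescaling. The summed FPKM of the sterol arm at 3 h was 40.6% of that at 0 h in KO and 43.4% in WT, that of the fatty acid arm 27.9% in both, and that of the regulators 69.3% in KO and 70.6% in WT.

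The third comparison set the drop in KO against the drop in WT, as the difference between the 2 differences. No member passed either size rule in either direction, where 1.46% of 11128 genes were past 2-fold and 4.32% past 1.5-fold on the side of a lower response in KO, and 0.953% and 2.39% on the other. With 1 library per group this does not show that the responses were alike. The members' median was -0.02, where that of all genes was -0.08, and 19 of 32 lay below 0, as did 63.4% of all genes. With the libraries rescaled to equal median ratios, 9 of the 32 lay below 0, where 48.4% of all genes did. Intervals from the deposited ones left out 0 for 7 members. A larger drop in KO was given by Hsd17b7 (-0.57, interval -0.82 to -0.33), Fdps (-0.48, -0.67 to -0.29), Scd2 (-0.28, -0.38 to -0.17) and Sqle (-0.25, -0.47 to -0.03). A smaller drop in KO was given by Stard4 (0.48, 0.20 to 0.77), Elovl6 (0.31, 0.08 to 0.53) and Mvd (0.30, 0.05 to 0.54). The Elovl6 value depends on the 1 added to 0.382 FPKM in KO and 0.609 FPKM in WT at 3 h. In FPKM the Elovl6 drop was nearly the same, at 5.71-fold in KO and 5.89-fold in WT. Without its non-coding entry Mvd had 0.08 with an interval of -0.14 to 0.29, and so no longer left out 0. The share of all genes with an interval off 0 was 21.0% on the lower side and 9.21% on the higher side. Scd1, with the largest difference between genotypes at each time, had a value of 0.05 with an interval of -0.17 to 0.27. In FPKM its drop was 4.05-fold in KO and 3.53-fold in WT.

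Other genes of the same pathways, from a list of 7 that holds none of the members, had a median difference between genotypes of -0.15 at 3 h and -0.07 at 0 h. At 3 h 6 of the 7 were lower in KO (65.6% of all genes), 2 with separate intervals (16.8%). At 0 h 4 were lower (50.1% of all genes), 2 with separate intervals (9.26%). Aacs, which activates acetoacetate, was lower in KO by 1.49-fold at 3 h and by 1.26-fold at 0 h. Lbr, a sterol reductase that is also a receptor for lamin B, was higher in KO at 0 h by 1.28-fold, with separate intervals. Tm7sf2, another reductase for the same step, was listed at 0 in KO at 3 h, and no fold is given. All 7 were lower at 3 h than at 0 h as deposited (79.9% of all genes in KO and 78.0% in WT). Their medians were -1.45 in KO and -0.76 in WT, where those of all genes were -0.64 and -0.54.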

How the data were processed

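RNA of 4 cultures was sequenced as single reads from strand-specific libraries, per the labels' protocols. TopHat2, Bowtie, SAMtools and Cufflinks, and the build mm9, are named per the submitters' processing notes; no version is given in the sources used here. FPKM values with their interval limits were deposited by the authors for 33841 transcript entries per library. The coordinates follow GRCm38 instead: all 42 member entries lay inside the GRCm38 gene. Entries were named through RefSeq accessions (33437) and a GENCODE table (187), with 217 left as accessions, and FPKM and limits were summed per gene. Reads per library were estimated from entries worth 1 read, as counts were not used here.

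Differences are of log2(FPKM + 1), where either library reached an FPKM of 1. The 2-fold rule asks for a difference of 1 and the 1.5-fold rule for 0.58, both with separate intervals. The calculation was tested on simulated data with counting error only, which hold no spread between cultures and so cannot bear on it. All 33 members are named whatever their values; members and lists were chosen with earlier results of these data known, and no list is independent evidence of its direction. Alternatives were pseudocounts of 0.1 and 5, median rescaling, no filter, an FPKM of at least 5 and the highest entry alone. Protein sequences were not used here, and 1 gene of a pathway list is not reported here. Python 3.11.15, pandas 2.3.3, numpy 2.4.6 and matplotlib 3.10.9 were used.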

Additional observations from a re-analysis of the deposited data

Results flagged for a closer look

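Stard4, the carrier of cholesterol between membranes, was the 1 measured member whose difference between KO and WT took opposite signs at the 2 times, at 0.15 at 3 h and -0.34 at 0 h on the log2(FPKM + 1) scale. It had 4.45 FPKM in KO and 3.92 FPKM in WT at 3 h, and 12.3 FPKM in KO and 15.8 FPKM in WT at 0 h. The difference between the 2 effects was not tested, since each group holds 1 library, and the intervals at 3 h overlap.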

How the results depend on the processing

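Of 150 recomputed summary values, 127 stayed close to the main result and 23 moved. A median was taken as close when it stayed within the median limits of the members' intervals. A count was taken as close when it changed by at most 1.5-fold. With a pseudocount of 5, no member passed the 2-fold rule between genotypes (0 at 3 h and 0 at 0 h), 2 passed the 1.5-fold rule at 3 h, and the fatty acid median at 0 h was -0.30. With a pseudocount of 0.1, 6 members passed the 1.5-fold rule at 0 h and 1 passed it as a larger drop in KO than in WT. For 3 h minus 0 h, a pseudocount of 5 gave medians of -0.96 (all members), -1.0 (sterol arm) and -1.11 (fatty acid arm) in KO, with 13 members past 2-fold, and of -1.03, -1.06 and -1.26 in WT. A pseudocount of 0.1 gave fatty acid medians of -1.98 in KO and -1.94 in WT. Median rescaling gave -0.66, -0.66 and -1.0 in KO with 11 members past 2-fold, and -0.81, -0.83 and -1.18 in WT with 12. These shifts follow from the scales themselves, since a larger pseudocount shrinks low values and the rescaling moves all genes. Ebp in KO reversed with the rescaling, to 0.01 against -0.60. With the highest entry alone, Scap was higher in KO than in WT at 0 h (0.09) and Pmvk higher at 3 h than at 0 h in KO (0.23).

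No paired analysis was possible because each group holds 1 library and the labels give no shared replicate numbers. Leaving out a library was not possible for the same reason. With 1 culture per group no difference can be set against the spread between cultures. The estimated depth of 20300000 to 30700000 reads limits the precision, and the deposited intervals give it for each value.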

Other observations

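A list of 7 genes covered sterol outflow, sterol esterification (Soat1), oxysterol synthesis and the LXR nuclear receptors (Nr1h2 and Nr1h3). Of the 7, 6 were lower in KO at 3 h (65.6% of all genes), 3 of them with separate intervals (16.8%). At 0 h 3 were lower (50.1% of all genes), 1 with separate intervals (9.26%). The median difference KO minus WT was -0.22 at 3 h, where that of all genes was -0.07, and 0.04 at 0 h, where that of all genes was 0.00. Abcg1, an exporter of cholesterol, had 8.68 FPKM in KO and 19.8 FPKM in WT at 3 h, and 75.2 FPKM in KO and 89.4 FPKM in WT at 0 h, and passed the 2-fold rule at 3 h. Abca1, an exporter under control of the same nuclear receptors, was higher in KO at 3 h by 1.37-fold with separate intervals. Ch25h, which makes the SREBP inhibitor 25-hydroxycholesterol, had 121 FPKM in KO and 139 FPKM in WT at 3 h, and 7.23 FPKM in KO and 2.77 FPKM in WT at 0 h. It was higher at 3 h by 16.7-fold in KO and 50.2-fold in WT, and higher in KO by 2.61-fold at 0 h.

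Of 11 other genes of lipid synthesis, 5 were measured at 3 h. All 5 were lower in KO (65.6% of all genes), 3 with separate intervals (16.8%), with a median of -0.31. At 0 h 8 of 10 were lower (50.1% of all genes), 5 with separate intervals (9.26%), with a median of -0.22. Elovl7 was higher in KO at 0 h by 1.3-fold, with separate intervals. Lpin1, a phosphatidate phosphatase, was lower at 3 h than at 0 h by 11.9-fold in KO and by 37.8-fold in WT. These folds rest on values under 1 at 3 h, 0.694 FPKM in KO and 0.336 FPKM in WT. Scd3 and Scd4, the neighbours of Scd1 and Scd2, were lower in KO at 0 h by 1.5-fold and 1.69-fold with separate intervals.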
